A study of Dorcoceras hygrometricum with 14 samples.

Results

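The genes described here encode the mitochondrial respiratory chain of Boea hygrometrica (Dorcoceras hygrometricum), a desiccation-tolerant plant whose leaf pieces can regenerate shoots. Members were the genes of the deposited expression table whose homology description or product name contains the words of a respiratory complex, of the mitochondrial ATP synthase or of the alternative oxidase. They number 68 of the 24110 genes in the table, after 1 chloroplastic ubiquinol oxidase was left out. By those descriptions, 22 members belong to complex I, 5 to complex II, 5 to complex III, 12 to complex IV and 10 to the ATP synthase. One is an alternative oxidase and 13 are assembly factors or chaperones. No member carried the name of an NADH dehydrogenase of type B.

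RNA was sequenced from leaf segments of sterile plants 1 month old, grown from seed of wild plants. The segments lay with the lower leaf side on a medium to which the auxin 2,4-D and the cytokinin 6-BA had been added, each at 0.1 mg/L. They were taken at 0, 5, 10 or 15 days, with 3 biological replicates per day, and each replicate pooled about 30 leaf discs, so p-values measure the spread between such pools. Day 0 is the only control, so time in culture, excision and the 2 hormones cannot be told apart. Bisulfite sequencing covered untreated young leaves of plants 1 month old and mature leaves of plants 6 months old, with 1 library each.

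In mitochondria, complex I takes electrons from NADH and complex II takes them from succinate, and both pass them to ubiquinone. Complex III hands them through cytochrome c to complex IV, which reduces oxygen, and the proton gradient built on the way drives ATP synthase. Plants also have an alternative oxidase, which passes electrons from ubiquinol straight to oxygen without pumping protons, and type II NAD(P)H dehydrogenases, which bypass complex I. In leaves the alternative oxidase is best known for its response to stress and for its work beside photosynthesis.

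The alternative oxidase fell after excision and stayed low, while no other member differed from day 0 by a log2 fold change of at least 1 that passed the test. Of the 68 members, 64 reached 1 FPKM (a fragment count scaled to transcript length and library size) in at least 3 libraries and were tested among the 17288 genes that did. A member is said below to pass the test when its adjusted p in limma's moderated test was under 0.05, and to be called when its log2 fold change was also at least 1 in size. Called at day 5 were 0 members higher and 1 lower, while 6.61% of all genes tested were called. Day 10 gave the same 0 and 1 with 4.49% of all genes called, and day 15 gave 0 and 1 with 9.02%. The 1 member was the alternative oxidase each time. These 3 comparisons share the day 0 libraries.

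Averaged over all libraries, 29 of the 68 members lay above 100 FPKM, 28 between 10 and 100 FPKM, and 11 under 10 FPKM. Above 10 FPKM in every library were 56 members. Between the highest and the lowest day mean (FPKM plus 1) the tested members had a median ratio of 1.33, and all genes tested had 1.53. That ratio was under 1.5 in 78.1% of the tested members and in 47.5% of all genes tested. The genes tested include any that reached 1 FPKM in 3 libraries. They were not matched to the members for level, so the ratios do not show whether the members are unusually stable for their level.

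The library check is brief. Total FPKM ran from 846672 to 970083 per library and 15531 to 16496 genes reached 1 FPKM. Leaf identity was checked with 31 mesophyll markers (chlorophyll-binding proteins, photosystem subunits, the small Rubisco chain), whose summed level was 95733 to 136015 FPKM at day 0, 34927 to 49235 at day 5, 29649 to 98323 at day 10 and 19505 to 54661 at day 15. All 29 markers tested had negative fold changes against day 0 at each day, and 11, 2 and 20 of them passed the test. In bulk RNA, fewer mesophyll cells and less of these RNAs per cell cannot be told apart. Over all libraries the summed markers of dividing cells (12 genes) lay at 54.2 to 172 FPKM, of phloem (6 genes) at 88.8 to 204 and of xylem (7 genes) at 26.3 to 47.9, and none of these genes passed the test. Epidermis markers (60 genes) summed to 1161 to 5332 FPKM, and 4, 2 and 5 of them passed at days 5, 10 and 15. The part of these cell types in the results below was not tested.

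The alternative oxidase, F511_07348, is described as ubiquinol oxidase 2 and its product as alternative oxidase 1B. It lies on scaffold KV007465.1 from 50707 to 52034 in the deposited table, whose genome build is not given in the sources used here. Its level at day 0 was 83.5, 142 and 73.8 FPKM in replicates 1 to 3. At day 5 it was 23.5, 24 and 11.7 FPKM. Every cultured library lay below every day 0 library, and replicate 2 was the highest of its day at all 4 days.

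At day 10 the 3 libraries of F511_07348 held 20.8, 30.3 and 17 FPKM, and at day 15 they held 22.7, 36.5 and 26.1 FPKM. Day means were 99.7 ± 36.7 FPKM at day 0, 19.7 ± 6.95 at day 5, 22.7 ± 6.83 at day 10 and 28.4 ± 7.16 at day 15 (SD, n = 3 each). On the log2(FPKM + 1) scale the gene fell by 2.29 at day 5 (SE 0.34, limma adjusted p = 0.00449), which is 4.87-fold lower. It fell by 2.07 at day 10 (SE 0.34, limma adjusted p = 0.00792, but 0.0521 on the 6 compared libraries alone) and by 1.74 at day 15 (SE 0.34, limma adjusted p = 0.00878). Day 10 against day 5 gave 0.22 (SE 0.34) and day 15 against day 10 gave 0.32 (SE 0.34), both at an adjusted p of 1 and with overlapping libraries. The mesophyll markers were lower over the same days, and their part in the fall of F511_07348 was not tested.

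**Figure D1:**
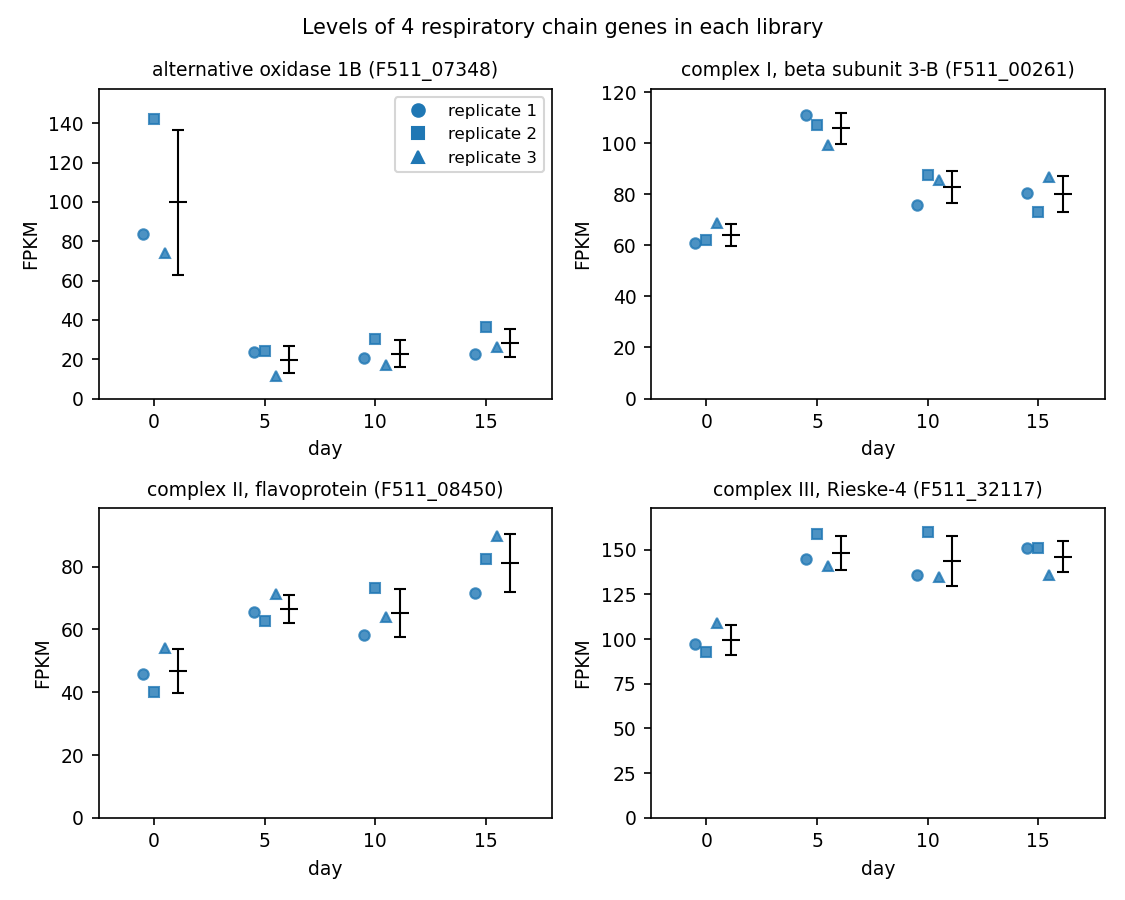
FPKM of F511_07348, F511_00261, F511_08450 and F511_32117 against day, with 1 symbol per library and the mean with its SD (n = 3) as a bar beside it. The alternative oxidase drops from 99.7 to 19.7 FPKM by day 5, whereas the complex II flavoprotein climbs from 46.7 to 81.2 FPKM by day 15.

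A moderated F test over the 3 comparisons with day 0 asked of each gene whether its level differed between days. It passed in 4 of the 64 tested members, at a background of 8.82% of all genes tested. They were F511_07348 (limma F test, adjusted p = 0.0094), the complex I subunit F511_00261 (adjusted p = 0.0283), the complex II flavoprotein F511_08450 (adjusted p = 0.0381) and the complex III Rieske protein F511_32117 (adjusted p = 0.0434). The plot of FPKM by day shows these 4 genes. F511_07348 fell and the others rose.

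Small positive differences were common at day 5. With no fold minimum, 8 members passed the test as higher at day 5, while 8.11% of all genes did. At day 10 it was 1 member against 5.06% of all genes, and at day 15 it was 5 members against 10.9%. The member share was thus above the background at day 5 (8 of 64) and below it on days 10 and 15. After rescaling 1 member passed as higher at day 5, next to 640 of the 17288 genes tested. Apart from F511_07348, F511_00261 and F511_08450, no member passed against day 0 after rescaling of the libraries, and none did without replicate 1 of day 0. Without replicate 2 of day 0, 2 members passed as higher at day 5 and 1 at day 15. Positive fold changes were found in 57 of 64 members at day 5, 48 at day 10 and 50 at day 15, and in 10456, 10700 and 11158 of the 17288 genes tested. After median-ratio rescaling they were found in 43, 22 and 27 members, and in 8403, 8606 and 9001 of the 17288 genes tested. The member median was 0.31 at day 5, where all genes tested had 0.14, then 0.12 at day 10 (all genes 0.15) and 0.16 at day 15 (all genes 0.21). The day 5 difference of 0.17 from all genes became 0.08 without replicate 1 of day 5, 0.25 without replicate 3 of day 5 and 0.27 with no filter on low values.

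All 3 libraries lay above all 3 day 0 libraries in 33 of 64 members at day 5, with 22.8% of all genes tested doing so. The same held for 12 members at day 10 (20% of all genes) and for 20 at day 15 (26.2% of all genes). This measure moved with the scaling of the libraries. After median-ratio rescaling, an alternative added after the data were seen, 8 members (12.5%) stood above day 0 at day 5, next to 14% of all genes. On replicates 1 and 2 only, 42 members did so, next to 37.4% of all genes. After rescaling the member median was 0.13 at day 5 (all genes -0.018). It turned to -0.046 at day 10 (all genes -0.0011) and -0.058 at day 15 (all genes 0.025). The positive sign at the later days thus depended on the scaling.

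**Figure D2:**
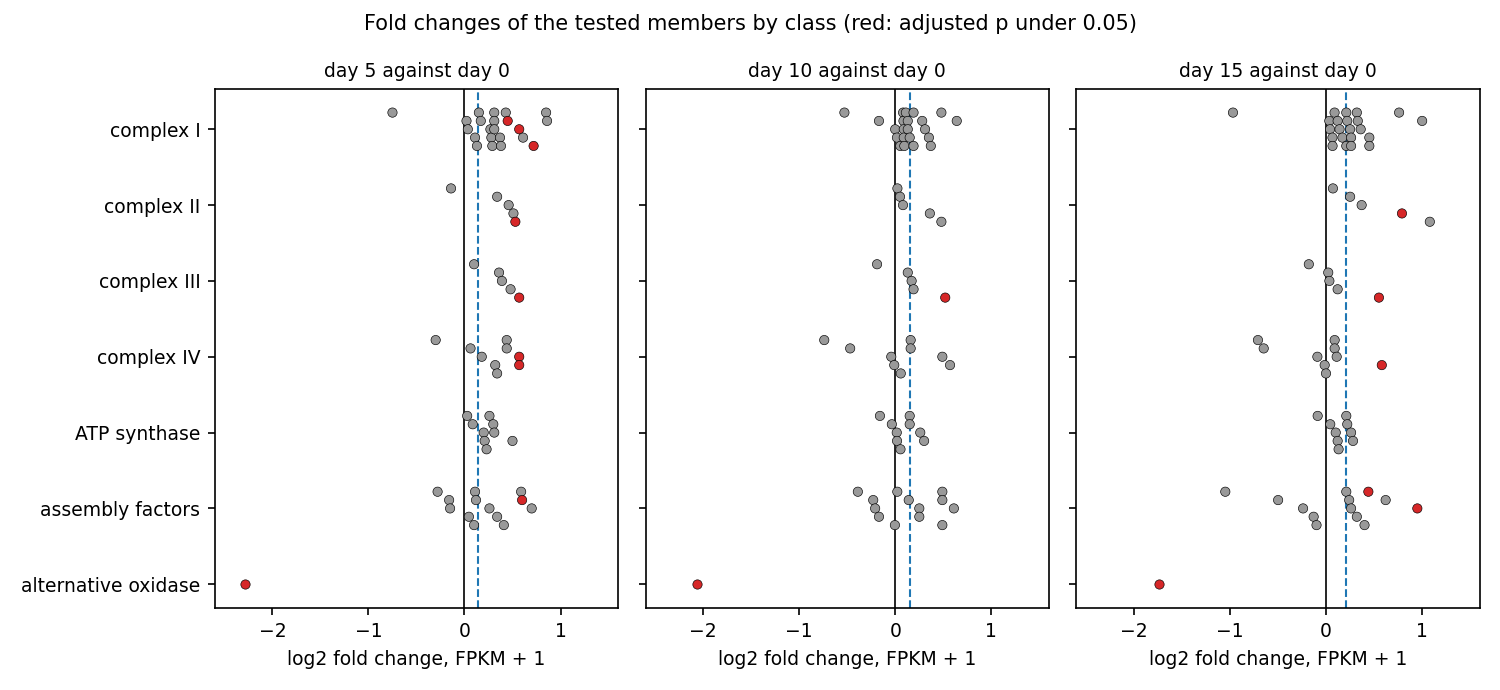
Log2 fold change (FPKM + 1) of each tested member against day 0, in 3 panels by day and in rows by class, with red points for an adjusted p under 0.05 and a dashed line at the median of all genes tested. The alternative oxidase stands alone at -2.29, -2.07 and -1.74. At day 5 the medians of complexes I to IV and of ATP synthase (0.23 to 0.46) lie above the dashed line at 0.14. The day 5 median of the assembly factors, 0.12, lies below it. At the later days the medians of these classes lie on both sides of the line.

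Which day held the highest mean gave a pattern that rescaling left nearly as it was. The highest mean fell on day 5 in 37 of 64 members (57.8%), whereas it did so in 23% of all genes tested. After rescaling it fell on day 5 in 36 members (56.2%) and in 21.3% of all genes. The lowest mean fell on day 0 in 48 members (75%) and in 51.1% of all genes. After rescaling only 19 members (29.7%) had their lowest mean there, next to 36.7% of all genes.

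Summed over the 54 structural subunits, the libraries held 5634, 5331 and 5952 FPKM at day 0 and 7303, 6921 and 6901 FPKM at day 5. The sum was 5443, 6420 and 6296 FPKM at day 10, then 6018, 6540 and 6345 at day 15. All day 5 libraries lay above all others, and replicate 1 of day 10 fell within the day 0 range. That library also had the highest mesophyll sum of the cultured libraries (98323 FPKM), whose part in its low subunit sum was not tested. As a share of the library's total FPKM the subunits made up 0.569% to 0.618% at day 0 and 0.72% to 0.769% at day 5. After rescaling the day 5 sums were 7281, 7033 and 6211, and the last overlapped the day 0 sums of 6369, 5820 and 6391.

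Each complex had its highest mean sum at day 5. Complex I summed to 2184 ± 131 FPKM at day 0, 2795 ± 79.1 at day 5 and 2432 ± 189 at day 10 (SD, n = 3 each). ATP synthase summed to 1781 ± 180 FPKM at day 0, 2063 ± 50.4 at day 5 and 1825 ± 203 at day 10. Complex IV summed to 672 ± 60.8, 889 ± 53.6 and 690 ± 96.7 FPKM on those days. For each of the 5 complexes the lowest day 5 library lay above the highest day 0 library, which rescaling ended for complexes III and IV and for ATP synthase.

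**Figure D3:**
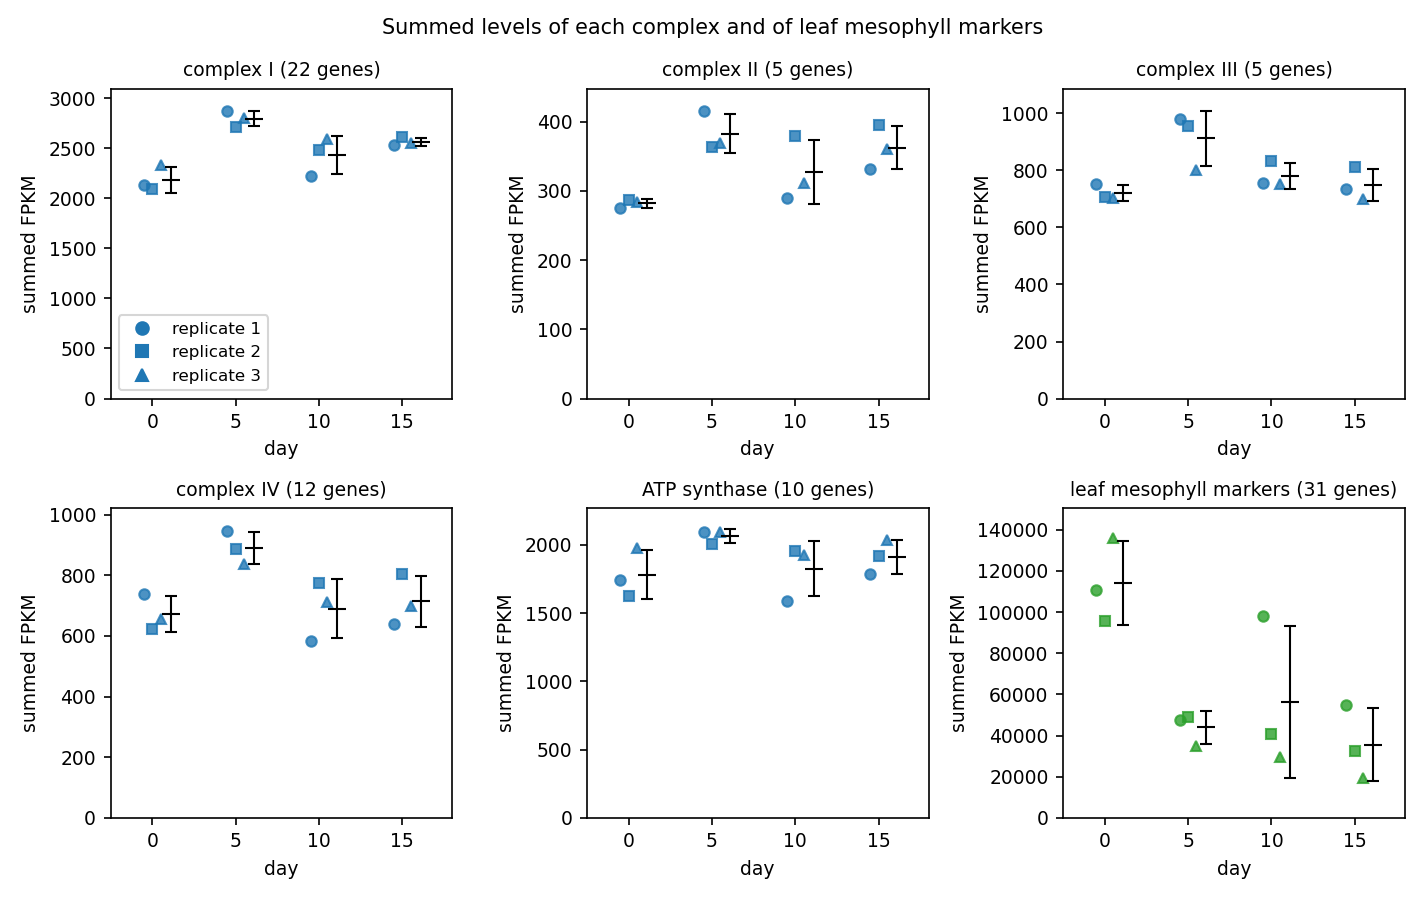
Summed FPKM of the members of each complex, and of 31 leaf mesophyll markers, against day, with 1 symbol per library and the mean with its SD (n = 3). The 5 complexes are highest at day 5, for example 2795 FPKM for complex I, while the marker sum is lower in every cultured library than in the day 0 libraries apart from replicate 1 of day 10, which lies inside their range.

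Complex I, the entry point for NADH, had 22 tested members, of which 21 had positive fold changes at day 5 with a median of 0.31. Passing the test at day 5 were 3, all higher, while 8.11% of all genes tested passed as higher. After rescaling 15 were positive, the median was 0.13 and 1 passed. The rescaled day 5 medians of complexes II, III and IV were 0.28, 0.21 and 0.16, against 0.46, 0.39 and 0.34 before. F511_00261, described as subunit 3-B of the beta subcomplex in the membrane arm, held 61, 62.1 and 68.8 FPKM at day 0 and 111, 107 and 99.2 FPKM at day 5. The 2 days did not overlap. It rose by 0.72 on the log2 scale (SE 0.13, limma adjusted p = 0.00823), and its adjusted p stayed between 0.00767 and 0.0424 in all 18 alternatives.

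F511_00261 then held 75.8, 87.7 and 85.4 FPKM at day 10 and 80.4, 73 and 86.9 FPKM at day 15, all above day 0 and below day 5. The fold changes of 0.37 and 0.32 did not pass the test (limma adjusted p = 0.0949 and 0.105).

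The other 2 members of complex I that passed at day 5 are both alpha subcomplex subunits. F511_02823, subunit 13-B, held 144, 169 and 181 FPKM at day 0, then 229, 242 and 262 at day 5, and it rose by 0.57 (SE 0.15, limma adjusted p = 0.0308). F511_23358, subunit 5, held 113, 112 and 117 FPKM at day 0, then 158, 158 and 152 at day 5, and it rose by 0.45 (SE 0.12, limma adjusted p = 0.041). Both days stood clear of each other in each gene, but neither gene passed in every alternative: F511_02823 missed in 8 of 18 and F511_23358 in 11 of 18, with adjusted p-values of up to 0.118 and 0.275. F511_02823 was also the complex I gene with the highest mean (210 FPKM).

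The iron-sulfur and flavoprotein subunits of the peripheral arm, which carry the electrons, did not pass the test. F511_14318 (iron-sulfur protein 7) held 136, 114 and 171 FPKM at day 0, then 195, 212 and 231 at day 5, with a fold change of 0.61 (SE 0.19, limma adjusted p = 0.0603). F511_10764, the flavoprotein 1 that binds NADH, stood at 106 ± 16.7 FPKM at day 0 and 107 ± 11.7 at day 5. F511_21776, iron-sulfur protein 1, stood at 140 ± 20.1 and 142 ± 7.75 FPKM. F511_24738, iron-sulfur protein 8, stood at 156 ± 10.5 FPKM at day 0 and 195 ± 19.3 at day 5. F511_25830, whose product is named NADH-ubiquinone oxidoreductase 1, chain, did not pass either. It stood at 8.65 ± 2.42 and 4.63 ± 0.474 FPKM.

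Complex II, succinate dehydrogenase, also belongs to the citric acid cycle. F511_08450, its flavoprotein subunit that oxidises succinate, held 45.7, 40.2 and 54.1 FPKM at day 0, then 65.6, 62.7 and 71.4 at day 5. It held 58.2, 73.3 and 63.8 FPKM at day 10, then 71.5, 82.4 and 89.8 at day 15. All 9 cultured libraries lay above the 3 at day 0, and only day 15 passed the test, with a rise of 0.79 (SE 0.15, limma adjusted p = 0.00904), or 1.73-fold. It also passed in all 18 alternatives, at an adjusted p of 0.00521 to 0.0385.

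F511_11792, named succinate dehydrogenase subunit 5, a plant-specific part of the complex, held 62.4, 52.1 and 67.7 FPKM at day 0, then 94.2, 90.6 and 78.9 at day 5. It rose by 0.53 at day 5 (SE 0.15, limma adjusted p = 0.0394), and did not pass in 8 of 18 alternatives (adjusted p up to 0.219). Both iron-sulfur subunits, which pass electrons from the flavoprotein to ubiquinone, missed the threshold. F511_35451 held 119 ± 17 FPKM at day 0 and 151 ± 5.09 at day 5. F511_39381, described as iron-sulfur subunit 3, whose Arabidopsis namesake is known from seeds, held 0.93, 1.49 and 0.58 FPKM at day 0, then 3.23, 5.58 and 1.56 at day 15 (fold change 1.08, SE 0.52, limma adjusted p = 0.172).

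In complex III, the cytochrome b-c1 complex, F511_32117 rose at each day. This gene, for the Rieske iron-sulfur protein that takes electrons from ubiquinol, held 97.2, 92.9 and 109 FPKM at day 0, then 145, 159 and 141 at day 5. It held 136, 160 and 135 FPKM at day 10, then 151, 151 and 136 at day 15. No cultured library overlapped day 0, and the 3 later days lay close together. The log2 fold changes were 0.57, 0.52 and 0.55 (SE 0.13 each) at limma adjusted p-values of 0.022, 0.0387 and 0.0197. The gene did not pass in 6, 11 and 6 of 18 alternatives at these days, with adjusted p-values of up to 0.131, 0.2 and 0.178.

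The small structural subunits of complex III did not pass. F511_11350, subunit 8, had the highest mean of the class (236 FPKM), with 209 ± 23 FPKM at day 0 and 278 ± 60.7 at day 5. F511_00458, subunit 7, held 242, 219 and 245 FPKM at day 0, then 197, 219 and 206 at day 15. F511_38047 and BGI_novel_G000997 are both named subunit 9 and had fold changes of 0.48 and 0.36 at day 5 (limma adjusted p = 0.103 and 0.307). Where 2 genes share a name, the authors' counting may have split reads between them.

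Complex IV, cytochrome c oxidase, had 9 tested members. F511_17071, subunit 5C-2, was its most abundant gene (mean 268 FPKM), with 262, 206 and 232 FPKM at day 0, then 379, 340 and 318 at day 5. It rose by 0.57 (SE 0.15, limma adjusted p = 0.0332) and was back at 223, 262 and 241 FPKM at day 10, within the day 0 range. F511_13513, subunit 6b-1, held 91.4, 89 and 120 FPKM at day 0, then 149, 136 and 162 at day 5. It rose by 0.57 at day 5 (SE 0.17, limma adjusted p = 0.0479) and by 0.58 at day 15 (SE 0.17, limma adjusted p = 0.0385). These 3 differences did not pass in 8, 13 and 9 of the 18 alternatives, with adjusted p-values of up to 0.166, 0.154 and 0.129.

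Subunits with 2 copies did not all move alike in their values, and the difference between copies was not tested. F511_04201, subunit 6b-2, held 135, 101 and 89.9 FPKM at day 0, then 96.5, 117 and 105 at day 15, whereas its partner F511_13513 held 133, 153 and 162 FPKM at day 15. F511_09892, subunit 5C-1, stayed at 14.6 to 47.7 FPKM over all libraries, below every library of F511_17071. Of the 2 genes named subunit 5b-1, F511_06093 went from 75.5 ± 10.1 FPKM at day 0 to 46 ± 15.3 at day 10 (fold change -0.74, limma adjusted p = 0.156) and F511_13786 from 41.8 ± 8.7 to 42 ± 11.9. F511_32142 and F511_24506, both named subunit 6a, which sit on different scaffolds, have the same value in every library (36.5 ± 5.98 FPKM at day 0, 49.6 ± 5.49 at day 5), so they enter each count above as 2 genes with 1 measurement.

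**Figure D4:**
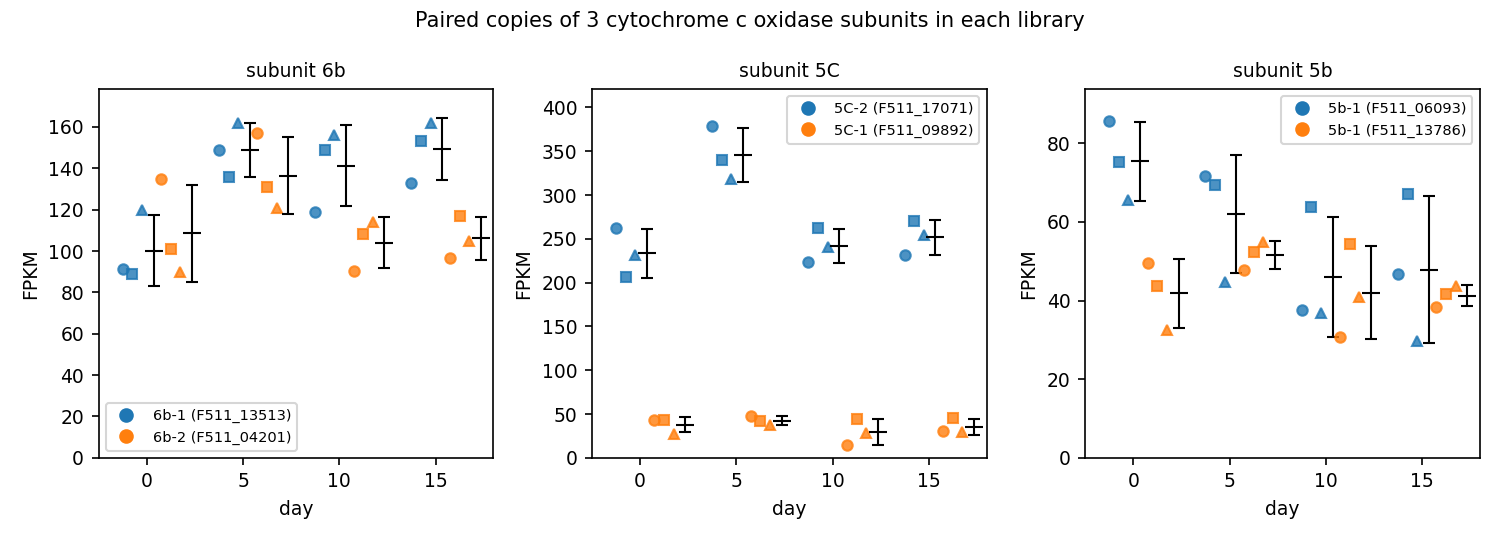
FPKM of paired copies of cytochrome c oxidase subunits 6b, 5C and 5b against day, with 1 symbol per library (circle, square and triangle for replicates 1, 2 and 3), 1 colour per copy and the mean with its SD (n = 3). Copy 5C-2 lies above 5C-1 in every library, and copy 6b-1 lies above 6b-2 in every day 15 library.

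Annotated entries named after genes that are usually encoded in the mitochondrial genome were near 0. Whether these entries stand for the mitochondrial genes themselves was not tested. F511_45347, for example, spans only positions 257 to 550 of scaffold KV039545.1. F511_45347 (cytochrome oxidase subunit 1) was listed at 0 in 7 of 12 libraries and reached 3.4 FPKM at most. F511_39122 (cytochrome c oxidase subunit 3) averaged 0.647 FPKM and F511_39123, named both a YMF19-type ATP synthase protein and a cytochrome oxidase polypeptide, averaged 0.434 FPKM. F511_16062, described as orf214 of a mitochondrion, was listed at 0 in all day 0 libraries and at 1.27, 0.58 and 1.22 FPKM at day 15. The low members F511_40655 (subunit 6b-like) and F511_42947 (ATP synthase subunit O), exceeded 0 in 1 library each and were not tested, nor were F511_39122 and F511_39123.

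ATP synthase, which turns the proton gradient into ATP, gave 9 tested members and none passed the test at any day. At day 5 all 9 had positive fold changes, from 0.028 to 0.50, with a median of 0.23. After rescaling 7 of the 9 were positive, with a median of 0.047. F511_18382, the epsilon subunit, was the most abundant member of all at a mean of 443 FPKM, with 445, 407 and 452 FPKM at day 0, then 612, 480 and 524 at day 5.

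The catalytic beta subunit is encoded by a pair of genes, neither of which passed. F511_14980 held 313, 312 and 440 FPKM at day 0, then 318, 353 and 404 at day 5. F511_06381 held 159, 146 and 239 FPKM at day 0, then 185, 205 and 224 at day 5. In both genes replicate 3 was above the others at day 0, and for F511_14980 it was the highest of its day on all 4 days. F511_04877, a delta' subunit of the central stalk, came nearest to the threshold with 75.9 ± 13.9 FPKM at day 0 and 107 ± 4.85 at day 5 (fold change 0.50, SE 0.17, limma adjusted p = 0.0776).

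Assembly factors build the complexes and lie at lower levels, from 1.03 to 72 FPKM on average. Of 13 tested, 1 passed at day 5, 0 at day 10 and 2 at day 15, all higher. Among all genes tested, 8.11%, 5.06% and 10.9% passed as higher on these days. F511_02892, surfeit locus protein 1, which helps heme insertion into complex IV in yeast and human cells, held 13.7, 14 and 12.2 FPKM at day 0, then 22.5, 23 and 17 at day 5. It rose by 0.60 (SE 0.17, limma adjusted p = 0.0405). F511_05064, a copper chaperone for complex IV (COX17 in yeast), held 6.92, 6.87 and 9 FPKM at day 0, then 15.9, 16.2 and 14.5 at day 15. It rose by 0.95 at day 15 (SE 0.26, limma adjusted p = 0.0302), or 1.93-fold.

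The heme A synthase factor F511_20682 (COX15) held 25.8, 25 and 28.2 FPKM at day 0, then 36.1, 33.8 and 38.7 at day 15, rising by 0.44 (SE 0.14, limma adjusted p = 0.0466). F511_02892, F511_05064 and F511_20682 did not pass in 10, 6 and 14 of 18 alternatives, with adjusted p-values of up to 0.197, 0.102 and 0.36. F511_19796, complex I assembly factor 7, had the highest mean of the class and stood at 63.8 ± 9.27 FPKM at day 0 and 73.9 ± 35.9 at day 5. F511_21476 was placed in this class, though its listed name is unnamed protein product and its product a hypothetical protein. It stood at 56.5 ± 8.36 FPKM at day 0 and 40.3 ± 11.4 at day 15 (fold change -0.50, limma adjusted p = 0.228). F511_12543, a succinate dehydrogenase assembly factor, went from 36.3 ± 7.82 to 55.6 ± 4.42 FPKM over the same time (0.62, limma adjusted p = 0.0523).

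**Figure D5:**
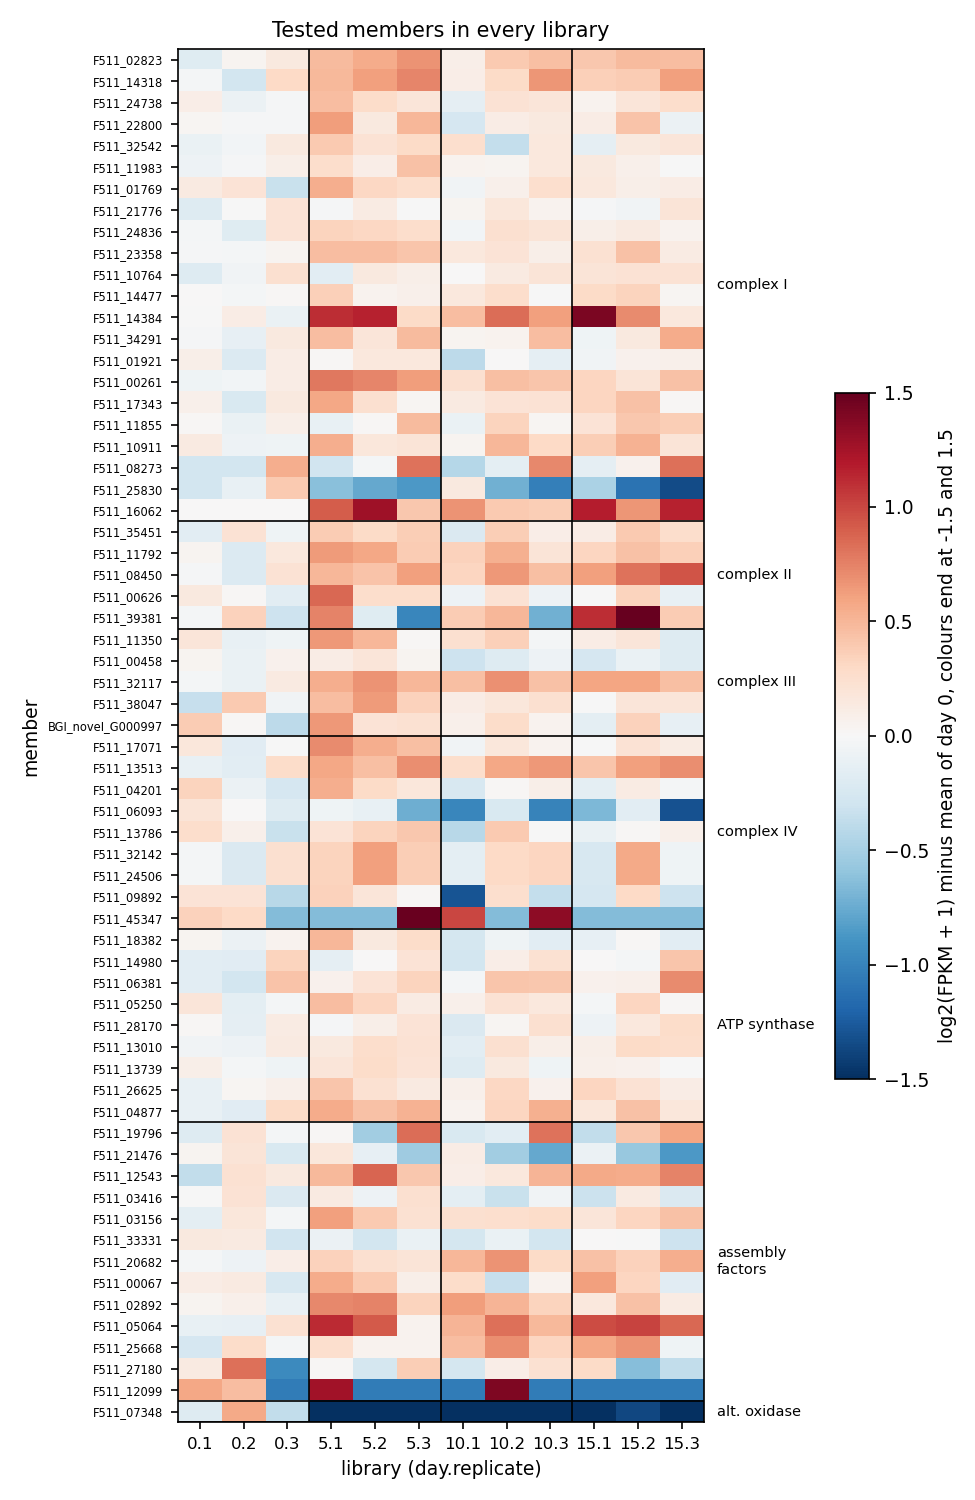
Heat map of the 64 tested members (rows, by class and then by mean FPKM) in the 12 libraries (columns, day and replicate), as log2(FPKM + 1) minus the mean of the day 0 libraries, with colours ending at -1.5 and 1.5. In 37 of 64 rows the mean is highest at day 5, the alternative oxidase in the last row is below -1 in all 9 cultured libraries, and F511_08273 is warmest in replicate 3 of each day.

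Between day 5 and day 10 no member was called, as 0% of all genes tested were. At an unadjusted p under 0.05 there were 7 members and 539 genes in all, in limma. Fold changes were negative in 53 of 64 members, with a median of -0.19 (all genes 0.0047), and rescaling gave -0.18 (all genes 0.0053). In 16 of 64 members all 3 day 10 libraries lay below all 3 day 5 libraries, at a background of 4.03%. After rescaling it was 12 members at a background of 3.78%, and on replicates 1 and 2 only it was 34 members at 18.6%. Both alternatives were added after the data were seen.

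These 16 members were spread over the complexes, with 7 in complex I, 1 in complex II, 2 in complex III, 4 in complex IV (2 of them the genes with the same values) and 2 in the ATP synthase. The difference was -0.51 for F511_17071 and -0.47 for F511_18382, both at a limma adjusted p of 1. In the other direction, 1 member, the succinate dehydrogenase assembly factor F511_25668, had all day 10 libraries above day 5. Day 15 against day 10 called 0% of all genes and 0 members, with 0 members and 561 genes at an unadjusted p under 0.05 in limma and a member median of 0.059 (all genes 0.049).

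Replicate 3 stood apart in many genes of the table. It was the highest of its day on all 4 days in 6 members, with 12.2% of all genes tested doing so, and the lowest in 4 members, with 5.31% of all genes. F511_08273, subunit 9 of the alpha subcomplex of complex I, held 67.2, 81.2, 76.2 and 81.7 FPKM in replicate 3 of days 0, 5, 10 and 15, and 33.8 to 47.6 FPKM in every other library. On the log2 scale that is 0.92 above replicates 1 and 2. F511_39381 lay 0.98 lower in replicate 3 and F511_06093 lay 0.56 lower.

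Around the chain, the enzymes that bypass complex I had values in both directions. Of 6 type II NAD(P)H dehydrogenases, 5 were tested. F511_28654, an external enzyme named B4, was called higher at day 15, with 1.62, 1.13 and 2.16 FPKM at day 0, then 4.53, 5 and 6.36 at day 15 (1.26, SE 0.32, limma adjusted p = 0.0225, up to 0.0799 in the 18 alternatives). F511_31662, named B1, held 30.7, 24 and 29.4 FPKM at day 0, then 43.1, 68.6 and 50.6 at day 15 and rose by 0.91 (limma adjusted p = 0.0104). F511_12001, named C1 and placed in chloroplast and mitochondrion by its description, fell at each day, from 31.9 ± 0.966 FPKM at day 0 to 19.5 ± 1.9 at day 5 and 18.4 ± 0.728 at day 15 (-0.69 and -0.76, limma adjusted p = 0.0148 and 0.00835).

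A search for mitochondrial carriers, among them those that exchange ADP, ATP and phosphate, found 14 tested genes. They include 4 uncoupling proteins and F511_14359, described as the ADP,ATP carrier ER-ANT1, which is known from the endoplasmic reticulum. Called lower were 2 at day 5 (F511_00040 and F511_27134), 0 at day 10 and 1 at day 15. Of the 17288 genes tested, 601, 390 and 758 were called lower on these days. F511_00040, an uncoupling protein 5-like carrier, held 259, 224 and 50 FPKM at day 0, 10.7, 6.34 and 27.2 at day 5 and 5.54, 11.1 and 63.9 at day 10. It fell by 3.42 at day 5 (limma adjusted p = 0.0274), did not pass when replicate 1 or replicate 2 of day 0 or day 5 was left out (highest adjusted p = 0.105), and overlapped day 0 at day 10. F511_27134, a phosphate carrier of low level, held 8.66, 13 and 5.67 FPKM at day 0, then 1.13, 1.79 and 0.62 at day 15, and it fell by 2.18 at day 15 (limma adjusted p = 0.00904). The ADP,ATP carrier F511_07174 rose by 0.55 at day 15 (limma adjusted p = 0.0142), from 102 ± 4.82 to 150 ± 12.2 FPKM.

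Protein import, which brings the nuclear-encoded subunits into the mitochondrion, had 20 tested genes. Of these, 7 passed the test at day 5, all higher, while 8.11% of all genes tested passed as higher. The list median was 0.54 (all genes 0.14). After rescaling it was 0.37 (all genes -0.018) and 3 passed as higher, next to 640 of the 17288 genes tested. F511_16551 (TIM23-1-like, part of the inner membrane channel) was called at day 5, with 23.6, 30.6 and 28.2 FPKM at day 0, then 65.6, 58.2 and 52.9 at day 5 (1.08, limma adjusted p = 0.00823). Its log2 fold change was below 1 after rescaling (0.90) and without replicate 1 of day 0 (0.97). A search for citric acid cycle enzymes found 12 genes, which include 3 NADP-dependent isocitrate dehydrogenases (F511_00070, F511_40702 and F511_35345) and F511_22005, described both as an isocitrate dehydrogenase and as a pentatricopeptide protein. All 12 had positive fold changes at day 5, with a median of 0.33, and after rescaling 7 did. The beta subunit of succinyl-CoA ligase, F511_01481, was the gene of this list that passed at day 5 (0.59, limma adjusted p = 0.0416). The alpha subunit of pyruvate dehydrogenase, F511_18713, was called higher at day 10 (1.61, limma adjusted p = 0.0288, up to 0.117 in the 18 alternatives). It was also called at day 15, with 9.59, 7.41 and 27.3 FPKM at day 0, then 43.3, 50.9 and 65.1 at day 15 (1.97, limma adjusted p = 0.00835). Of the 5 genes of its list 2 passed as higher at day 15, next to 1889 of the 17288 genes tested. The list median was 0.25 (all genes 0.21). The beta subunit F511_32009 stood at 125 ± 13.7 FPKM at day 0 and 128 ± 16.9 at day 15. Cytochrome c, F511_05331, stood at 18 ± 2.87 FPKM at day 0 and 18.6 ± 4.45 at day 5 (limma adjusted p = 0.965).

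Other mitochondrial lists gave few calls. For the counts below, 8.11%, 5.06% and 10.9% of all genes tested passed as higher at days 5, 10 and 15. As lower, 747, 523 and 1020 of the 17288 genes tested passed. Of 9 tested mitochondrial chaperones, F511_13296, a mitochondrial heat shock 70 kDa protein, was called higher at day 15 (62.9 ± 19.3 to 124 ± 20.1 FPKM, log2 fold change 1.00, limma adjusted p = 0.0116). Its fold change was below 1 after rescaling (0.79) and without replicate 1 of day 0 (0.83), replicate 2 of day 0 (0.94) or replicate 3 of day 15 (0.88). Of 17 genes found by a search for mitochondrial ribosomal proteins 3, 0 and 2 passed at days 5, 10 and 15, all higher. A search for mitochondrial pentatricopeptide proteins, which process organelle RNA, found 112 tested genes, of which 7, 3 and 2 passed, all higher. Among the 7 at day 5, F511_06764 is first described as a copper transport protein and matched only by a second description. Of 3 prohibitins 1 passed at day 5. Of 12 organelle stress regulators (NAC factors and BCS1-type chaperones) 1 passed as lower at days 5 and 10 and 1 as higher at day 15.

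The genes most like F511_07348 over the 12 libraries, by Pearson's r of log2(FPKM + 1) and as a description only, were F511_02433 (zeatin O-xylosyltransferase-like, r = 0.944), F511_38326 (scarecrow-like protein 21, r = 0.941), F511_05090 (pheophytinase, r = 0.936), F511_28262 (a cytochrome P450, r = 0.929) and F511_28257 (uncharacterized, r = 0.926). F511_05090 held 95.1 ± 12.2 FPKM at day 0 and 46 ± 2.81 at day 5. Against the other 63 tested members r was negative for 53, with a median of -0.35 and a range of -0.822 to 0.633. These points share their libraries and days.

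Bisulfite sequencing was made of young and mature leaves, so it does not cover the cultured explants. The CG regions carry the names of these 2 samples. The sample names on the CHG and CHH regions match no label, so which leaves were compared there is not given. The authors' deposited tables of differentially methylated regions tie a region to 3 of the 67 members with a locus tag, at a background of 4.37% of genes, and a CG region to 2 of them, at a background of 3.4%. With 1 library per age, nothing here was tested. For F511_00067 (the complex IV copper factor COX11, scaffold KQ990066.1, 548706 to 550290), the authors' deposited table gives a region in an exon (550005 to 550124, 5 CG sites) at a level of 0.824 in mature and 0.397 in young leaves. In the same gene the authors' deposited table gives a region in the coding sequence (548786 to 549186, 7 sites) at 0 in mature and 0.246 in young leaves, and 1 downstream (546709 to 546897, 10 sites) at 0.773 and 0.483.

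For F511_03156 (ATP synthase F1 assembly factor 2, scaffold KQ987269.1, 1084478 to 1086283), the authors' deposited table gives an upstream CG region (1082983 to 1083303, 9 sites) at 0.347 in mature and 0.184 in young leaves. A downstream CG region (1087972 to 1088300, 6 sites) of the authors' deposited table stands at 0.751 and 0.573. The third member with a region is the succinate dehydrogenase subunit F511_00626. Its region lies downstream in CHH context, where the labels do not give the samples compared. In explants the 3 genes had fold changes of 0.34, 0.41 and 0.46 at day 5 (F511_00067, F511_03156 and F511_00626), none of which passed the test. No region is tied to the alternative oxidase F511_07348.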

How the data were processed

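RNA-seq of 12 leaf explant libraries and bisulfite sequencing of 2 leaf libraries were used as deposited. The authors deposited gene expression as FPKM, per the file headers. The tools, per the submitters' processing notes and with no role given, were StringTie 1.0.4, HISAT, BSMAP and Bowtie2 2.2.5. The genome build is not given in the sources used here. Depth is unknown, since FPKM keeps no read counts, and so is the methylation coverage. Differentially methylated regions carry a methylation level as a fraction and a p-value, both as the authors deposited them. The 6 level columns whose sample names match no label were not used.

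Genes reaching 1 FPKM in 3 or more libraries were tested on log2(FPKM + 1) with limma 3.58.1 (R 4.3.3, statmod 1.5.0), with 1 mean per day, a robust trend and two-sided p-values adjusted over the 17288 tested genes by the Benjamini-Hochberg method. A pseudocount of 1 understates the change of low genes. The procedure was tested on simulated data. Members and gene lists were chosen with earlier results of these data known. Named were called members, the alternative oxidase, per class the 2 most abundant and the 2 with the smallest F test p, members with a methylated region and the 5 genes most like the oxidase; other genes were named after their values were seen.

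Deviations from day means of same-numbered libraries correlated at 0.282, 0.184 and 0.656 between days 5 and 10. They correlated at 0.441, 0.227 and 0.498 between days 10 and 15, and at 0.191, 0.058 and 0.446 between days 5 and 15. Replicate 3 gave the highest value each time. Whether the numbers pair the samples was not tested, and the main fit used no replicate block. Alternatives were another pseudocount, no filter, median-ratio rescaling, a replicate block, the 6 compared libraries only, replicates 1 and 2 only and leaving out each library.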

Additional observations from a re-analysis of the deposited data

How the results depend on the processing

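The number of members called at day 5 was 1. It was 2 with a pseudocount of 0.1, 3 on replicates 1 and 2 only and 9 with no fold minimum. When a library was left out it was 1 to 3 (3 without replicate 3 of day 5). Of the 17288 genes tested, 541 were called higher and 601 lower at day 5. These became 615 and 548 with a pseudocount of 0.1, and 957 and 1076 on replicates 1 and 2 only. Without replicate 3 of day 5 they were 554 and 602. With no fold minimum 1402 genes passed as higher and 747 as lower. At day 10 the number of members called was 1, with 2 under no fold minimum. It was 0 on the 6 compared libraries, where F511_07348 had a limma adjusted p of 0.0521. All genes called higher and lower at day 10 numbered 387 and 390, but only 50 and 38 on the 6 compared libraries. With no fold minimum 874 genes passed as higher and 523 as lower. At day 15 the number of members called was 1, with 3 at a pseudocount of 0.1 and 2 with the replicate block. It was 3 on replicates 1 and 2 only and 6 with no fold minimum. When a library was left out it was 1 to 2 (2 without replicate 3 of day 0 or of day 15). All genes called higher and lower numbered 801 and 758 at day 15. These became 857 and 722 at a pseudocount of 0.1, 1026 and 891 with the block, and 1218 and 974 on replicates 1 and 2 only. Without replicate 3 of day 0 they were 982 and 912, and without replicate 3 of day 15 they were 622 and 399. With no fold minimum 1889 genes passed as higher and 1020 as lower. The member median minus the all-gene median was 0.17 at day 5, 0.27 with no filter and 0.08 to 0.25 when a library was left out. It was -0.056 at day 15 and 0.052 with no filter. Between days 5 and 10 it was -0.19, and -0.31 to -0.12 when a library was left out (-0.31 without replicate 3 of day 5). Members wholly above day 0 at day 5 numbered 33, then 8 after rescaling and 42 on replicates 1 and 2 only. Those wholly below day 5 at day 10 numbered 16, then 12 and 34. The members with a CG region numbered 2, and 1 at a level difference of at least 0.3. The causes were not tested.

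Against day 0 the replicate numbers were not taken to pair the samples, and whether they do was not tested. In each comparison 1 of the 3 correlations of deviations was under 0.1: -0.0109 (day 5, replicate 2), 0.0359 (day 10, replicate 1) and 0.0879 (day 15, replicate 1). The others were 0.155 to 0.21. With the replicate block 13, 7 and 13 members passed with no fold minimum at days 5, 10 and 15, where 9, 2 and 6 passed without it. The block also raised the calls over all 17288 genes, counted with the fold minimum. Called higher and lower were 714 and 786 genes at day 5 (541 and 601 without the block). At day 10 they were 547 and 569 (387 and 390), and at day 15 they were 1026 and 891 (801 and 758). No member was called between later days with the block.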
